A study of Homo sapiens with 12 samples.

Results

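The genes described are 10 members of the aryl hydrocarbon receptor (AhR) pathway, chosen by name from the 57500 genes counted in each library. They are the receptor AHR, its partner ARNT, its repressor AHRR, and the target genes CYP1A1, CYP1A2, CYP1B1, TIPARP, NQO1, ALDH3A1 and UGT1A6. CYP1A1 was included because it was lower in both engineered lines, so its values are given as a description, without a test. RNA was sequenced from HepG2 cells, a human hepatocellular carcinoma line, with 4 replicates in each of 3 groups. The groups were wild-type cells (WT), cells in which thiosulfate sulfurtransferase was silenced by shRNA (shTST), and cells that overexpressed this enzyme (overTST). Both engineered lines were made with lentiviral vectors and selected with blasticidin, and the methods describe the WT group only as wild-type control, with no vector control named. The methods name no separate transductions for the replicates, so the spread among replicates need not cover differences between transductions. All 3 groups were kept in normal medium, which holds glycine. TST, also called rhodanese, is a mitochondrial enzyme that transfers sulfur and converts cyanide to thiocyanate.

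AhR is a transcription factor of the bHLH-PAS family. Without a ligand it is held in the cytosol by HSP90 and co-chaperones. When it binds a ligand, such as a dioxin, a polycyclic aromatic hydrocarbon or a tryptophan metabolite, it moves to the nucleus, pairs with ARNT and binds xenobiotic response elements, whose core is GCGTG. In hepatocytes it is best known for inducing the CYP1 family of cytochrome P450 enzymes. AHRR and TIPARP are themselves induced and dampen the receptor in turn.

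Of the 12 promoters listed by RefSeq for 8 of the 10 genes, 5 promoters of 4 genes held the core GCGTG on either strand within 250 bases before the start of the transcript. These genes were AHRR, CYP1A1, TIPARP and UGT1A6. Among all 35116 promoters in that list, 32.2% held the same 5 letters. The longer form TNGCGTG was present in 2 of these promoters, 1 each of AHRR and UGT1A6, and in 4.52% of all promoters. In the promoter of CYP1A1 the core stood at −57 to −53 from the start. In the first promoter of TIPARP it stood on the other strand, at −208 to −204 and at −142 to −138. The promoter of NQO1 held neither form in this window. CYP1A1 is shown as the gene with the largest difference, and TIPARP and NQO1 as the members whose changes were the most stable. Each sequence is the 250 bases before the RefSeq start on GRCh38.p14, written 5′ to 3′ on the strand of the gene, with the core or its reverse complement in capitals.
CYP1A1, chr15:74725529-74725778, minus strand: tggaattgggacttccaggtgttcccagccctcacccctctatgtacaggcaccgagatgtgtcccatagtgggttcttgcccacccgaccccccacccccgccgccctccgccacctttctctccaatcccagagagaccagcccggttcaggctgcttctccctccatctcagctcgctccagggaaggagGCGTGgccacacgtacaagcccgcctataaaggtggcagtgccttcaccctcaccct
TIPARP, chr3:156674340-156674589, plus strand: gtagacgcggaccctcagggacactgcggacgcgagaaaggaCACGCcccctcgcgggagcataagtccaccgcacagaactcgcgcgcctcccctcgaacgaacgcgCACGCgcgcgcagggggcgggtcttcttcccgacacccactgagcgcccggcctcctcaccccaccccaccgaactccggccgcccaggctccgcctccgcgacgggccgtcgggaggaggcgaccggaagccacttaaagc
NQO1, chr16:69726561-69726810, minus strand: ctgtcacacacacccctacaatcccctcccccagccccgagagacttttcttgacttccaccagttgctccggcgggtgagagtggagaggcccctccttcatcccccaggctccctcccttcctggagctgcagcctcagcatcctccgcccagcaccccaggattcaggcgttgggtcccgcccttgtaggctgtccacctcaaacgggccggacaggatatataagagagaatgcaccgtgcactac

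Library totals were 28866175 to 45120508 counts in WT, 27527854 to 33865386 in shTST and 22911380 to 27414142 in overTST. Every overTST library was therefore shallower than every WT library. The liver marker ALB was at 5123 to 8336 CPM and AFP at 1734 to 3108 CPM over the 12 libraries, where CPM is the normalized read count, scaled to a common library size with the TMM method. Of the 8 markers of other cell types, PTPRC had at most 0.0335 CPM, KRT5 at most 0.0439, COL3A1 at most 0.0679 and VWF at most 0.355. COL1A1 was at 0.804 to 1.67 CPM, CD68 at 1.14 to 2.498, PECAM1 at 1.41 to 3.498 and LYZ at 1326 to 1740. LYZ fell by 0.21 with shTST (adjusted p = 0.00449, edgeR), and PECAM1 rose by 0.60 with overTST (adjusted p = 0.00278, edgeR). The summed level of the 8 hepatocyte markers was 23048 to 26044 CPM in WT, 24263 to 28526 in shTST and 21361 to 25856 in overTST. With shTST 4 of the 8 were higher and 2 lower, beside 6.69% higher and 9.40% lower of all genes tested. With overTST 2 were higher and 1 lower, beside 15.7% and 18.2% of all genes tested. The summed level of the 8 markers of other cell types, nearly all LYZ, was 1599 to 1677 CPM in WT, 1331 to 1486 in shTST and 1501 to 1745 in overTST. Mitochondrial genes took 6.91 to 11.98% of the counts in WT, 6.84 to 8.65% in shTST and 10.8 to 11.7% in overTST. The part of these differences in the results on the members was not tested. TST itself was at 47.2, 47.5, 52.8 and 48.5 CPM in the WT libraries, at 33.0, 33.5, 36.5 and 33.5 in shTST, and at 51.8, 56.0, 61.6 and 62.1 in overTST. With shTST it fell by 0.52 on the log2 scale (standard error 0.055, adjusted p = 3.2e-06, edgeR), and with overTST it rose by 0.24 (standard error 0.062, adjusted p = 0.00384, edgeR). After a correction for transcript length the second difference was 0.083 (adjusted p = 0.277, edgeR). The overexpressed sequence was codon-optimized, so reads from it need not be counted on the native gene.

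The members differed widely in level. On the RPKM scale, which divides the CPM by the exonic length of the gene in kilobases, NQO1 was the most abundant with a mean of 211.7 over the 12 libraries (range 185.5 to 229.1). ARNT followed with 4.19, then TIPARP with 2.86, AHR with 2.32, CYP1A1 with 1.25, ALDH3A1 with 0.393 and AHRR with 0.0637 RPKM. The ranges of TIPARP and AHR overlapped, as did those of AHR and CYP1A1, and those of CYP1A1 and ALDH3A1. AHR shares 35.6% of its exonic bases with another gene on the same strand. Reads there may be uncounted, so the RPKM of AHR may be too low and its rank is uncertain. CYP1A1 spanned the widest relative range of the 6 genes above AHRR, from 0.499 to 2.88 RPKM. CYP1B1, UGT1A6 and CYP1A2 were at the edge of detection, with mean levels of 0.0131, 0.00622 and 0.00373 RPKM, and overlapped in range. They had a count in 9, 6 and 3 of the 12 libraries.

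The filter on low counts, applied to all genes, kept 7 of the 10 members. Tests were made with edgeR's quasi-likelihood test, with p-values adjusted over all genes by the Benjamini-Hochberg method and a threshold of 0.05. Between shTST and WT 14584 genes were tested, of which 16.1% passed, 6.69% higher and 9.40% lower with shTST. Of the 6 members tested besides CYP1A1, 1 passed, NQO1, which was lower. Between overTST and WT 14421 genes were tested, of which 33.9% passed, 15.7% higher and 18.2% lower. Here 2 of the 6 members passed, ARNT and ALDH3A1, both lower. The median log2 fold change of the 6 members was −0.11 with shTST and −0.13 with overTST, beside 0.0040 and 0.0019 over all genes tested. These shares of members were close to those of all genes. The comparisons use the same WT libraries and are therefore not independent of each other.

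**Figure D1:**
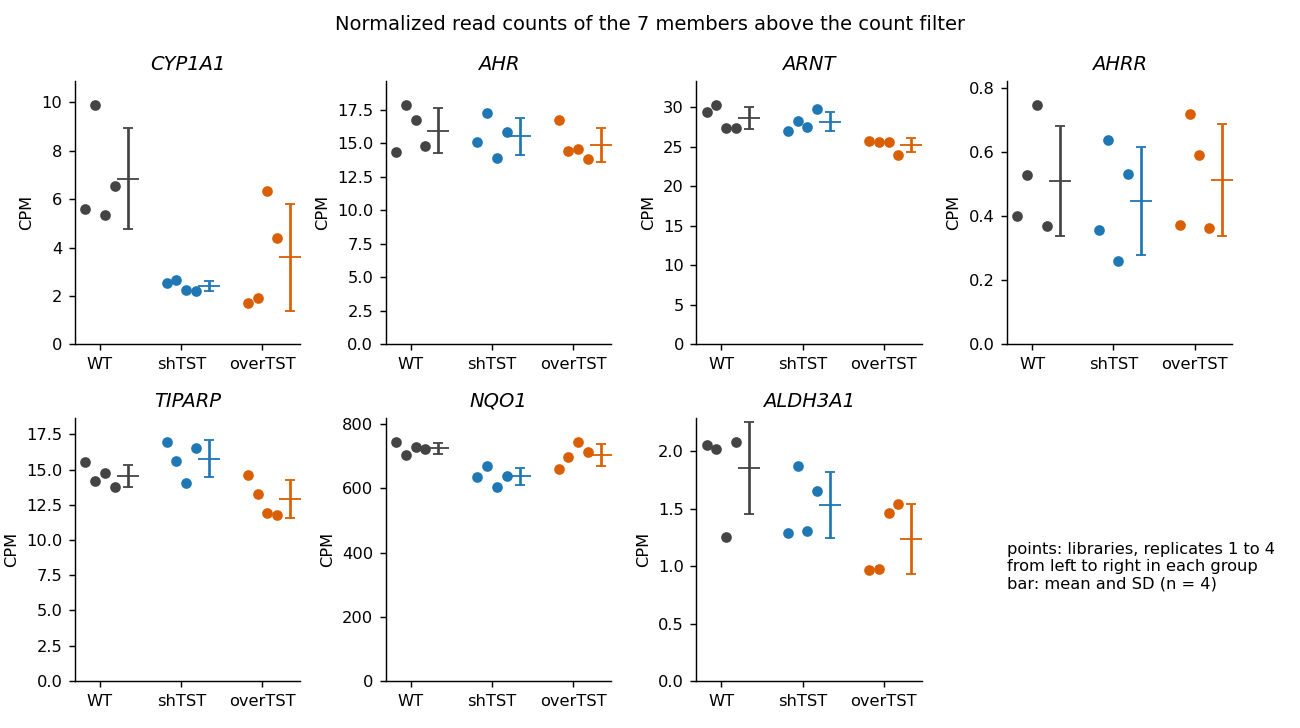
Normalized read counts (CPM, linear axes from 0) of the 7 members above the count filter, with 1 point per library and the mean with its SD (n = 4) beside each group. The 4 shTST points of CYP1A1 lie below all 4 WT points, whereas the overTST points spread from 1.72 to 6.35 CPM.

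CYP1A1 encodes a monooxygenase that oxidizes polycyclic aromatic hydrocarbons and is the most sensitive transcriptional target of AhR in many cells. The gene (ENSG00000140465) lies at chr15:74719542-74725610 on GRCh38, on the minus strand, and shares no exonic bases with another gene. Its level was 5.59, 9.90, 5.36 and 6.56 CPM in WT replicates 1 to 4. In shTST it was 2.54, 2.64, 2.26 and 2.19 CPM, each below the lowest WT library. In overTST it was 1.72, 1.90, 6.35 and 4.41 CPM. Replicates 1 and 2 of overTST were thus the lowest of all 12 libraries, while replicate 3 lay inside the WT range, so overTST and WT overlapped. In RNA from whole cultures, fewer cells expressing a gene and less of its RNA per cell cannot be told apart.

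The CYP1A1 log2 fold change was −1.53 (standard error 0.17) with shTST, which is 0.346 times the WT level. With overTST it was −0.96 (standard error 0.26), which is 0.516 times the WT level. Between the lines, shTST minus overTST was −0.57 (standard error 0.28). These folds rest on 1005 reads of CYP1A1 in WT, 294 in shTST and 349 in overTST. The coefficient of variation among replicates was 9.07% in shTST, below the 11.7% that counting alone would give. It was 30.6% in WT and 61.5% in overTST, where counting alone would give 6.31% and 10.7%.

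Leaving out each library in turn kept the CYP1A1 log2 fold change with shTST between −1.63 and −1.28, the smallest difference being that without WT replicate 2. With overTST it moved from −0.71, without WT replicate 2 or without overTST replicate 1, to −1.40, without overTST replicate 3. Without overTST replicate 3 the difference between the lines shrank to −0.13.

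**Figure D2:**
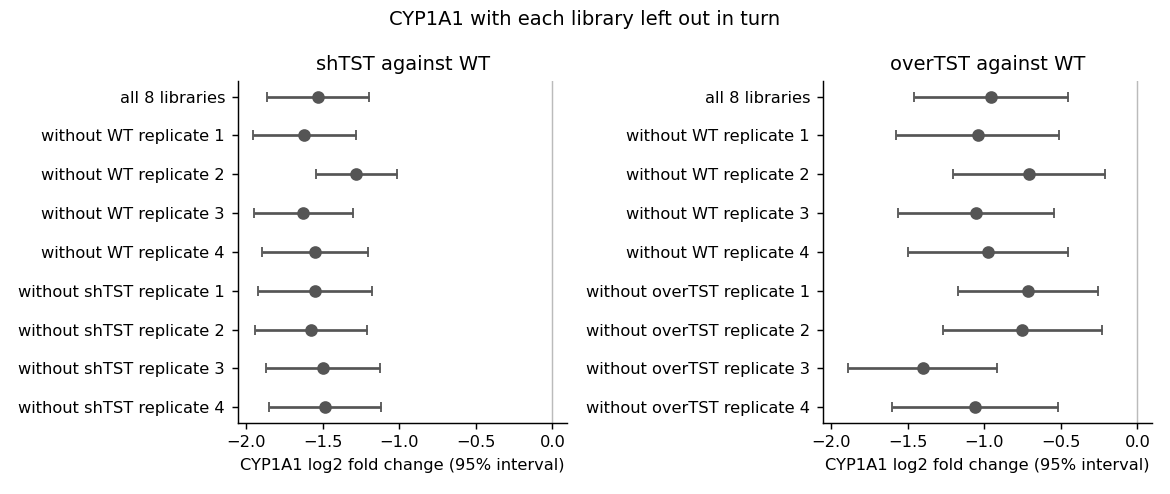
CYP1A1 log2 fold change against WT (points) with 95% intervals (lines), from all 8 libraries and with each library left out. With shTST the points stay between −1.63 and −1.28, and with overTST they range from −1.40 to −0.71. The gene was chosen for its fall in both lines, so the intervals are no test.

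The other CYP1 genes were near the limit of detection. CYP1A2, the neighbouring gene that metabolizes caffeine in adult liver, starts 23233 bases from CYP1A1 and is transcribed in the opposite direction. It had 1 read in WT replicate 2, 2 reads in shTST replicate 3, 1 read in overTST replicate 2 and no read in the other 9 libraries. CYP1B1, which oxidizes estrogens and hydrocarbons and is expressed mainly outside the liver, had 5, 6, 4 and 0 reads in WT, 1, 0, 4 and 5 in shTST, and 0, 2, 2 and 1 in overTST. UGT1A6, which conjugates phenols with glucuronic acid, had at most 3 reads in a library, and 44.0% of its exonic bases are shared on the same strand with other UGT1A genes, so reads there cannot be given to 1 of them. In 9 two-sided exact permutation tests of the CPM of these 3 genes between groups, the smallest p was 0.143 and every adjusted p was 1, where 4 against 4 libraries allow no p below 0.0286. Libraries tied at 0 reads raise that limit further, so these tests could not decide whether the 3 genes differed between groups. A count of 0 allows up to 3 reads, or 0.0658 to 0.136 CPM at these depths, so differences below that were not detectable.

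AHR (ENSG00000106546, chr7:17298622-17346152, plus strand), the receptor, passed the test in no comparison. It was at 14.3, 17.9, 16.8 and 14.8 CPM in WT, at 15.1, 17.2, 13.9 and 15.9 in shTST, and at 16.7, 14.4, 14.6 and 13.8 in overTST. The 3 groups overlapped. The log2 fold change was −0.043 with shTST (95% interval −0.20 to 0.12, adjusted p = 0.775, edgeR) and −0.099 with overTST (95% interval −0.27 to 0.069, adjusted p = 0.400, edgeR). Of its exonic bases, 35.6% are shared with another annotated gene on the same strand, and reads there may have been left uncounted.

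ARNT (ENSG00000143437, chr1:150809705-150876768, minus strand) is the dimerization partner of AhR and of the hypoxia-inducible factors. It was at 29.4, 30.3, 27.4 and 27.4 CPM in WT and at 27.0, 28.2, 27.5 and 29.8 in shTST, which overlapped. In overTST it was at 25.8, 25.7, 25.6 and 23.9 CPM, each below the lowest library of the other groups. With overTST it fell by 0.18 on the log2 scale (standard error 0.065, adjusted p = 0.0308, edgeR), and with shTST the log2 fold change was −0.026 (95% interval −0.14 to 0.088, adjusted p = 0.806, edgeR). The ARNT call with overTST was lost after the correction for transcript length (−0.12, adjusted p = 0.154, edgeR). It was also lost without WT replicate 1 (adjusted p = 0.0807, edgeR), WT replicate 2 (0.0862), overTST replicate 3 (0.0578) or overTST replicate 4 (0.0975).

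AHRR (ENSG00000063438, chr5:304176-438291, plus strand), the repressor that competes with AhR for ARNT, was measured by few reads. It had 13, 24, 22 and 12 reads in WT, 10, 19, 9 and 16 in shTST, and 10, 17, 15 and 8 in overTST. All 3 groups overlapped. The AHRR log2 fold change was −0.20 with shTST (95% interval −0.85 to 0.46, adjusted p = 0.746, edgeR) and 0.013 with overTST (95% interval −0.63 to 0.66, adjusted p = 0.982, edgeR). Differences within these intervals were not detectable at this depth, and the sign changed in both comparisons when single libraries were left out.

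TIPARP (ENSG00000163659, chr3:156673235-156706770, plus strand) encodes a mono-ADP-ribosyltransferase that modifies AhR and promotes its degradation. It was at 15.6, 14.2, 14.7 and 13.8 CPM in WT, at 17.0, 15.6, 14.02 and 16.5 in shTST, and at 14.6, 13.3, 11.95 and 11.8 in overTST. The WT libraries lay between the means of the engineered lines and overlapped both groups. The TIPARP log2 fold change was 0.12 with shTST (standard error 0.074, adjusted p = 0.313, edgeR) and −0.17 with overTST (standard error 0.085, adjusted p = 0.125, edgeR). Without overTST replicate 1 the second difference passed the threshold (−0.24, adjusted p = 0.0313, edgeR).

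NQO1 (ENSG00000181019, chr16:69706996-69726951, minus strand) is a quinone reductase, induced by AhR and by the oxidative-stress factor NRF2. It was at 745, 704, 730 and 723 CPM in WT and at 636, 671, 604 and 640 in shTST, so every shTST library was below every WT library. In overTST it was at 661, 696, 745 and 713 CPM and overlapped both other groups. With shTST it fell by 0.19 on the log2 scale (standard error 0.045, adjusted p = 0.00672, edgeR), that is to 0.879 times the WT level. This call was kept in all 18 alternatives run, with adjusted p from 2.19e-04 to 0.0305. With overTST the log2 fold change of NQO1 was −0.043 (95% interval −0.14 to 0.056, adjusted p = 0.547, edgeR). An antisense gene overlaps 17.7% of the exonic bases of NQO1, and the use of strand in counting is not given in the sources used here.

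ALDH3A1 (ENSG00000108602, chr17:19737984-19748943, minus strand), an aldehyde dehydrogenase that is strongly induced by AhR ligands in liver cells, was low. It was at 2.06, 2.02, 1.26 and 2.08 CPM in WT, at 1.29, 1.87, 1.30 and 1.66 in shTST, and at 0.970, 0.974, 1.46 and 1.54 in overTST. WT replicate 3 lay apart from the other WT libraries and within the range of overTST, below every shTST library. With overTST ALDH3A1 fell by 0.60 on the log2 scale (standard error 0.22, adjusted p = 0.0359, edgeR), that is to 0.659 times the WT level. With shTST the log2 fold change was −0.29 (95% interval −0.67 to 0.092, adjusted p = 0.339, edgeR). The call with overTST was lost without WT replicate 1 (adjusted p = 0.0864, edgeR), WT replicate 2 (0.0861), WT replicate 4 (0.0883), overTST replicate 1 (0.0996) or overTST replicate 2 (0.115). Within overTST, replicates 1 and 2 were lower than replicates 3 and 4 for both ALDH3A1 and CYP1A1.

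The lines were also compared with each other, in a fit of all 12 libraries. Of 14883 genes, 33.0% passed, 16.9% higher and 16.1% lower in shTST than in overTST. Among the 6 members besides CYP1A1, TIPARP and ARNT were higher in shTST and NQO1 was lower. TIPARP was higher by 0.29 on the log2 scale (standard error 0.083, adjusted p = 0.00929, edgeR), a call kept in all 22 alternatives run, and its groups overlapped through shTST replicate 3 and overTST replicate 1. NQO1 fell by 0.14 (standard error 0.047, adjusted p = 0.0197, edgeR). ARNT was higher by 0.16 (standard error 0.060, adjusted p = 0.0473, edgeR).

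The other members did not pass between the lines. The log2 difference was 0.057 for AHR (95% interval −0.11 to 0.23), −0.21 for AHRR (−0.91 to 0.49) and 0.31 for ALDH3A1 (−0.13 to 0.75). The ARNT call was lost in 14 of 22 alternatives, including the correction for transcript length (0.099, adjusted p = 0.212, edgeR) and leaving out WT replicate 1 or 4, shTST replicate 2, 3 or 4, or overTST replicate 2, 3 or 4 (adjusted p from 0.0528 to 0.154, edgeR). The NQO1 call was lost in 5 of 22, including the correction for transcript length (−0.087, adjusted p = 0.152, edgeR) and leaving out shTST replicate 3 (0.0759) or overTST replicate 3 (0.0964).

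**Figure D3:**
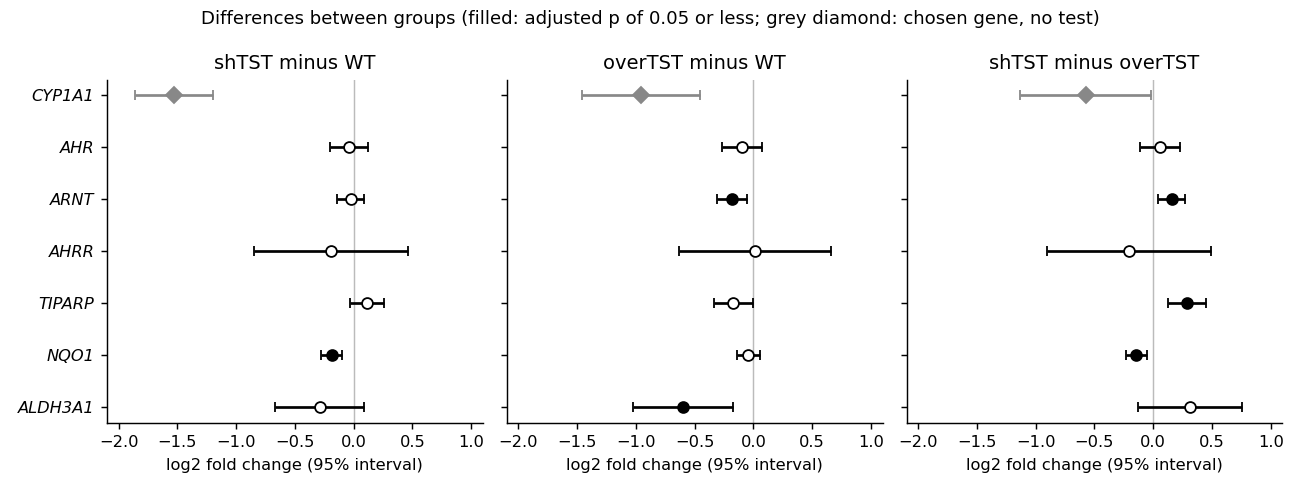
Log2 fold changes (points) with 95% intervals (lines) of the 7 members above the count filter in 3 comparisons, filled where the adjusted p passed 0.05, with CYP1A1 in grey and untested. CYP1A1 lies farthest below 0 in each panel, at −1.53, −0.96 and −0.57, while AHR and AHRR span 0 in all 3.

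Genes around the receptor were read from 8 lists, of which only some hold partners or targets of AhR. They were the receptor complex, bHLH-PAS relatives, coregulators, other targets, the kynurenine route, NRF2 targets, P450 electron partners and other xenobiotic receptors. No gene of the cytosolic receptor complex passed edgeR's test with shTST, of 5 tested, and 2 had an unadjusted p of 0.05 or less. DESeq2 and limma-voom called 0 as well, and edgeR after the correction for transcript length called 1. With overTST CUL4B, the scaffold of a ubiquitin ligase that AhR can join, fell by 0.28 (adjusted p = 9.02e-04, edgeR). HSP90AA1, HSP90AB1 and PTGES3, which hold AhR in the cytosol, passed in neither comparison with WT, although limma-voom called 4 of the 5 genes with overTST.

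Of 9 tested bHLH-PAS relatives of AhR and ARNT, 4 were lower and none higher with shTST, beside 9.40% lower of all genes, with NPAS1, a neuronal repressor, at −0.66 (adjusted p = 5.31e-04, edgeR) and EPAS1 (HIF-2alpha) at −0.20 (adjusted p = 0.00968, edgeR). The count was 2 without WT replicate 2, shTST replicate 1 or shTST replicate 4. With overTST 2 of 9 were lower and none higher, beside 18.2% lower of all genes. HIF1A, which shares ARNT as partner, had a log2 fold change of −0.46 (adjusted p = 2.94e-06, edgeR). ARNT2, the closest relative of ARNT, fell by 1.17 from 1.99 to 0.884 CPM (adjusted p = 1.47e-04, edgeR).

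Of 11 transcriptional coregulators of AhR, 10 were lower and none higher with overTST, where 18.2% of all genes were lower. The median log2 fold change of the list was −0.36, beside 0.0019 over all genes. NRIP1, a corepressor of nuclear receptors, fell by 0.56 (adjusted p = 1.87e-06, edgeR) and NCOA2, a p160 coactivator, fell by 0.60 (adjusted p = 4.42e-06, edgeR). These are long transcripts, with a median exonic length of 8633 bases beside 4479 over all genes tested. After the correction for transcript length 8 were lower and 1 higher, with a median of −0.17. With shTST 9 of the 11 did not pass, and NCOA3, another p160 coactivator, rose by 0.18 (adjusted p = 0.0158, edgeR).

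Among 20 other genes reported as AhR targets, 10 were tested. With shTST 4 were lower and none higher, beside 9.40% lower of all genes. MYC, a growth-promoting transcription factor, fell by 0.17 (adjusted p = 0.0116, edgeR). The count was 2 without WT replicate 2 or shTST replicate 1, and MYC was not called without shTST replicate 2 (adjusted p = 0.0543, edgeR). With overTST 3 were lower and 2 higher, where 33.9% of all genes were called. MYC fell by 0.38 (adjusted p = 2.94e-06, edgeR) and ABCG2, a drug efflux transporter, fell by 0.45 (adjusted p = 2.21e-04, edgeR). Of 10 genes of the kynurenine route, which makes AhR ligands from tryptophan, 5 were tested. The rest fell below the count filter, among them IDO1 and IDO2 with no read and TDO2 with at most 2 reads in a library. None of the 5 tested genes passed edgeR's test in either comparison with WT, and 0 had an unadjusted p of 0.05 or less. DESeq2 and limma-voom also called 0 of them, and edgeR after the correction for transcript length called 1 with overTST.

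NRF2 targets were read because NQO1 belongs to both pathways. With shTST 6 of 16 were lower and 1 higher, beside 9.40% lower and 6.69% higher of all genes. AKR1B10, an aldo-keto reductase, fell by 0.81 (adjusted p = 7.78e-07, edgeR) and its relative AKR1C1 fell by 0.48 (adjusted p = 2.71e-05, edgeR). With overTST 8 of 16 were lower and 4 higher, beside 18.2% and 15.7% of all genes. ABCC2, a conjugate export pump, fell by 0.44 (adjusted p = 6.04e-06, edgeR) and TXN, thioredoxin, rose by 0.39 (adjusted p = 1.25e-05, edgeR). After the correction for transcript length 5 were lower and 2 higher with overTST, as was the case without WT replicate 2.

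Of the 4 electron partners that P450 enzymes depend on, 1 was higher with shTST and 2 with overTST. Of all genes 16.1% and 33.9% were called in these comparisons. CYB5A, cytochrome b5, rose with shTST by 0.20 (adjusted p = 0.00626, edgeR) and with overTST by 0.24 (adjusted p = 7.93e-04, edgeR). CYB5R3, the reductase of cytochrome b5, rose with overTST by 0.19 (adjusted p = 0.0154, edgeR), a call lost without WT replicate 1 (0.0712) or overTST replicate 4 (0.0918). POR and PGRMC1 did not pass in either comparison. Of 5 other xenobiotic and hepatic nuclear receptors, none passed with shTST in edgeR, DESeq2 or limma-voom, and 0 had an unadjusted edgeR p of 0.05 or less. With overTST 2 of the 5 were lower and none higher, beside 18.2% lower of all genes. PPARA, the fatty-acid sensor, fell by 0.43 with overTST (adjusted p = 2.25e-05, edgeR) and HNF4A, the main hepatocyte factor, fell by 0.15 (adjusted p = 0.0125, edgeR). The HNF4A call was lost after the correction for transcript length (−0.070, adjusted p = 0.243, edgeR).

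Between the lines, 9 of 11 coregulators were higher in shTST than in overTST and none lower, and 6 of 16 NRF2 targets were lower and none higher, beside 16.9% higher and 16.1% lower of all genes. After the correction for transcript length 8 coregulators were higher and 2 lower, and 5 NRF2 targets were lower and 1 higher.

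**Figure D4:**
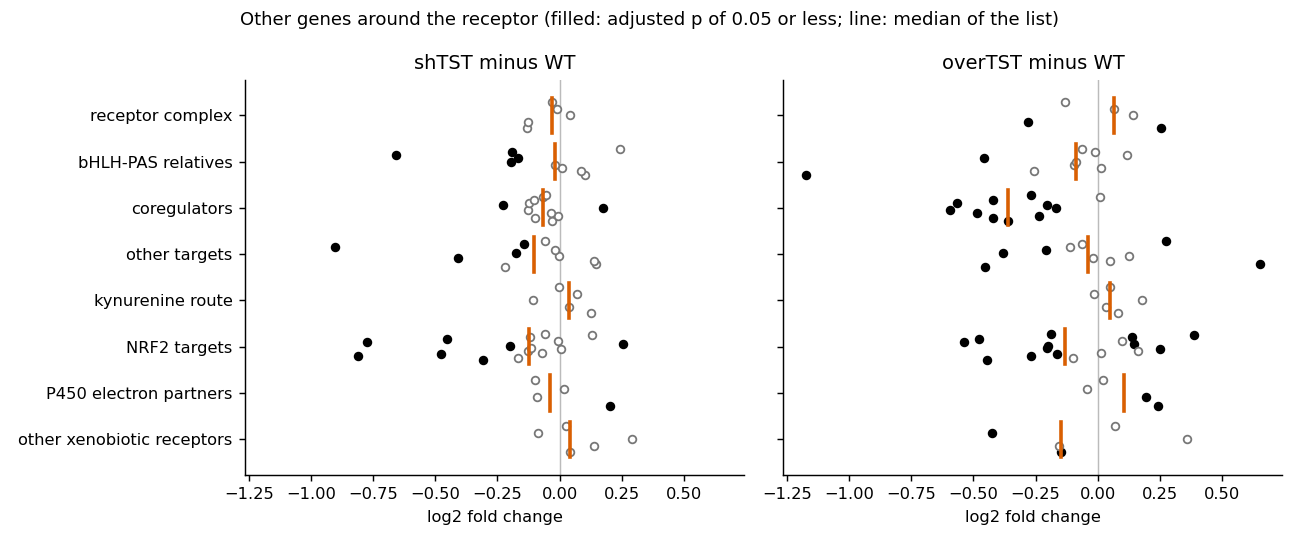
Log2 fold changes against WT of the tested genes in the 8 lists (points, filled where the adjusted p passed 0.05) and the median of each list (vertical line). Most coregulators lie below 0 with overTST, where the median is −0.36, and NRF2 targets spread from below 0 to above 0 in both comparisons.

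The genes whose profile over the 12 libraries was nearest to that of CYP1A1 were found among 11527 genes with a mean log2 CPM of at least 1. The measure was the root mean square difference of log2 CPM after each gene was centred on its own mean, where CYP1A1 itself departs from its mean by 0.79. The nearest was SLC7A11, the cystine importer, with a difference of 0.443. It was at 27.8 to 35.6 CPM in WT, 15.9 to 19.3 in shTST and 16.1 to 23.9 in overTST. MASP1, a complement protease, followed with 0.505, then PIM1, a serine/threonine kinase, with 0.521, and ASNS, asparagine synthetase, with 0.524. ASNS was at 75.8 to 87.0 CPM in WT, 46.2 to 56.4 in shTST and 56.5 to 76.5 in overTST.

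The other members were farther away. ALDH3A1, which was below the level searched, had a difference of 0.613, and 39 of the searched genes were nearer. For NQO1 the difference was 0.724 and 1081 genes were nearer. For AHR it was 0.785 and 4644 genes were nearer, and for TIPARP it was 0.855 and 9613 genes were nearer. The profiles share the same libraries and depths, and these values are a description.

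**Figure D5:**
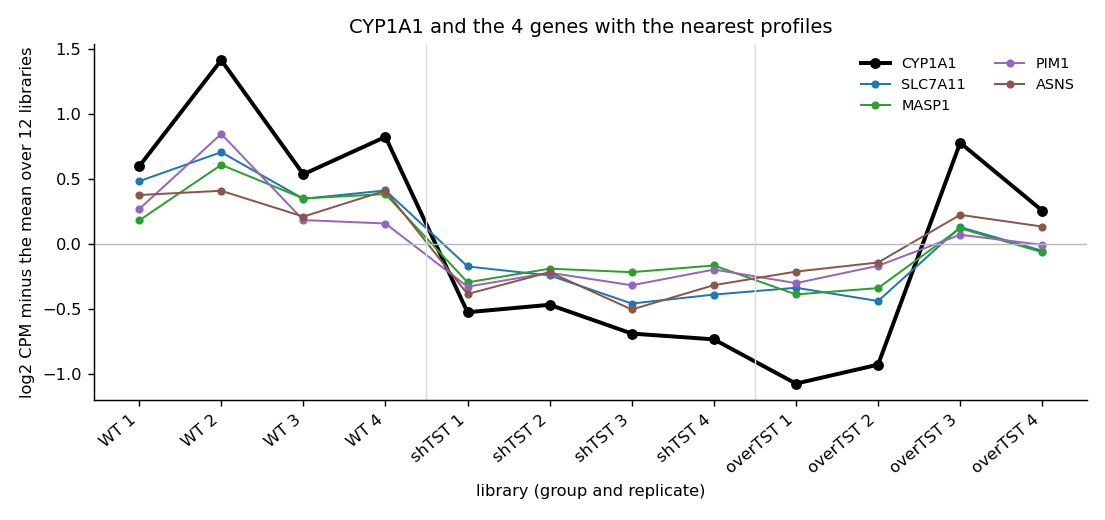
Log2 CPM minus the mean over 12 libraries for CYP1A1 (black) and the 4 genes with the nearest profiles, by library. Lines only join the values of 1 gene. All 5 genes are above their mean in the 4 WT libraries and below it in the 4 shTST libraries, and CYP1A1 is above its mean in overTST replicates 3 and 4.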

How the data were processed

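RNA-seq of 12 HepG2 libraries was used, 4 replicates each of WT, shTST and overTST, grouped by the sample labels, which describe independent replicates. For each library the authors deposited raw, whole-number read counts on 57500 Ensembl genes, with positions and exonic length. Per the labels' processing notes the reads were trimmed with Trimmomatic 0.36, aligned with STAR 2.5.2b to GRCh38 and counted with featureCounts (Subread 1.5.2). The strand setting and annotation release are not given in the sources used here. A symbol was found for 56410 identifiers. Within each group no library pair was a duplicate, and pairs across groups were not compared.

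The members and lists were chosen with earlier results of these data known. The libraries of WT and 1 line (8) were fitted for each comparison with WT, and all 12 for that between the lines, with edgeR 4.0.16 (filterByExpr, TMM, quasi-likelihood test) in R 4.3.3, and adjusted p-values over all genes at 0.05. The 95% intervals are 1.96 standard errors. CPM per library were scaled over all 12 libraries, and log2 CPM used a prior count of 2. Genes removed by the filter were compared with exact permutation tests (SciPy 1.17.1). Members, TST, the 2 genes with the smallest p among those called in each list and comparison with WT, and the 5 genes nearest to CYP1A1 were to be named, and some of these are not reported here. The lists held the receptor complex, bHLH-PAS relatives, coregulators, other targets, the kynurenine route, NRF2 targets, P450 electron partners and other receptors.

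Alternatives were DESeq2 1.42.0, limma-voom (limma 3.58.1), upper-quartile or RLE scaling, no filter, a minimum of 1 CPM in 4 libraries, a lowess correction for exonic length (span 0.3), the replicate block, other sets of libraries and leaving out each library. For TST and the list genes they were read after the values had been seen. The steps were tested on simulated data. Promoters came from RefSeq (GRCh38.p14). The depth sets the counting error, and intervals for a count of 0 cover that error only.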

Additional observations from a re-analysis of the deposited data

Results flagged for a closer look

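In each group of 4 libraries the lowest and highest CPM of the 7 members above the count filter were compared with the other libraries. Of 21 such groups, 2 held a library whose gap to its nearest neighbour exceeded Dixon's 95% limit for 4 values, which chance passes in about 1 of 20 groups. ARNT in overTST replicate 4 was at 23.9 CPM (gap 0.912 of the range), below the other overTST libraries. ALDH3A1 in WT replicate 3 was at 1.26 CPM (gap 0.922 of the range), below the other WT libraries. The call of lower ARNT with overTST was lost without the first library (adjusted p = 0.0975, edgeR), and that of lower ALDH3A1 was kept without the second.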

How the results depend on the processing

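The NQO1 call with shTST and the TIPARP call between the lines were kept in every alternative run. CYP1A1 kept its sign in all of them, but it was chosen for its fall in both lines, so this is a description and no test. The number of members called with shTST was 1 throughout. With overTST it was 1 instead of 2 with upper-quartile scaling, with the correction for length, and with the replicate block and the correction for length together, and 0 to 2 when single libraries were left out, with 0 without WT replicate 1 or WT replicate 2. Between the lines it was 1 instead of 3 with no filter, with the correction for length, and with the replicate block and that correction together, and 1 to 3 with single libraries left out. The number of genes called with shTST was 1513 to 2336 with single libraries left out, lowest without shTST replicate 1. Upper-quartile scaling gave 1284 higher and 1151 lower genes with shTST in place of 975 and 1371.

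Members that were not called changed sign as follows. With shTST AHR was at 0.021 without WT replicate 2 and 0.011 without shTST replicate 3 (range −0.091 to 0.021 with single libraries left out), ARNT at 0.0027 without WT replicate 2 (range −0.050 to 0.0027), and AHRR at 0.016 without WT replicate 3 and 0.012 without shTST replicate 3 (range −0.41 to 0.016). With overTST AHRR was at −0.010 with no filter, −0.079 without WT replicate 1, −0.10 without WT replicate 4, −0.19 without overTST replicate 2 and −0.068 without overTST replicate 3 (range −0.19 to 0.22). Between the lines AHR was at −0.0027 with the correction for length and −0.0048 with the replicate block and that correction. The cause was not tested.

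The deviations of libraries with the same replicate number were weakly correlated at most (from −0.0527 to 0.0801). For shTST and WT the same number gave the highest correlation for replicates 1, 2 and 3. For overTST and WT this held for replicates 1 and 3, and between the lines for replicate 1. With the replicate block 2980 genes were called with shTST, 5166 with overTST and 5232 between the lines, in place of 2346, 4893 and 4907. The members called numbered 1, 2 and 3 as before. CYP1B1, CYP1A2 and UGT1A6 are limited by depth.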
